A study of Homo sapiens with 6 samples.

Results

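The genes described here are 9 members of the CSF1, VEGF and FGF signaling families, among 24960 genes in the count table. They comprise the ligand genes CSF1, PGF and VEGFB and the receptor tyrosine kinase genes CSF1R, FLT1, KDR, FGFR1, FGFR3 and FGFR4, and all 9 were found by their symbols. They were chosen by their measured fold changes, as receptors and ligands that moved in opposite directions between the same control and hyperoside libraries, so their values are a description without a test. RNA came from K562, a BCR::ABL-positive chronic myeloid leukemia (CML) cell line that the labels place under bone and leukemia. The control group and the hyperoside (2 mM) group each had 3 libraries, and hyperoside is a plant flavonol glycoside. The labels name no further agent and no time of treatment, and they do not say whether replicates were separate cultures, so p-values measure only the spread between these libraries. Each library held 35613283 to 36754725 gene counts, and libraries of 1 group differed by more than counting error (chi-square per degree of freedom of 6.34 or more in every pair). The line's erythroid character, though not its identity, was checked with 10 erythroid genes. All of them were at 1 FPKM (the count scaled to gene length and library total) or more in every library. The embryonic globin gene HBE1 was the most abundant of these, at 4773 FPKM in the control group and 3605 FPKM in the hyperoside group (log2 fold change -0.46, edgeR adjusted p = 0.000546). Of the 10 erythroid genes 3 rose (30%), 4 fell (40%) and 3 were not called, against 22.1% higher and 23.2% lower among all tested genes. The fetal globin genes HBG1 and HBG2 fell by log2 fold changes of -0.87 and -0.80 (edgeR adjusted p = 3.18e-06 and 2.34e-06). The erythropoietin receptor gene EPOR rose by 1.22, and the transcription factor genes KLF1 and NFE2 by 0.96 and 0.87 (edgeR adjusted p = 4.65e-07, 2.64e-06 and 1.49e-06).

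CSF1 is the growth factor of monocytes and macrophages, and its receptor CSF1R is a class III receptor tyrosine kinase, the class of KIT, FLT3 and the PDGF receptors. VEGF ligands act on endothelial and some hematopoietic cells: VEGFA binds both FLT1 (VEGFR1) and KDR (VEGFR2), whereas PGF and VEGFB bind only FLT1 of this pair. FLT1 is also spliced into a soluble decoy form, which counts per gene do not separate from the membrane receptor. FGF receptors need heparan sulfate co-receptors to bind FGFs and signal through the docking protein FRS2 toward RAS and ERK. In K562 cells, BCR::ABL feeds the same RAS, ERK and PI3K pathways from inside the cell.

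The sequences just upstream of the annotated starts are shown for the genes of both directions, because the genes other than VEGFB split into a rising and a falling set in these cells. The RefSeq promoter table on GRCh38.p14 matched 7 of the 9 genes, all but CSF1 and FGFR1, and the 250 bases before a start are printed 5′ to 3′ on the gene's own strand. Capitals mark any match, on either strand, to the GC box GGGCGG, the TATA box TATAAA, the cyclic AMP response element TGACGTCA, the AP-1 site TGANTCA, the PU.1-type ETS site GAGGAA or the GATA site AGATAA. No match of one motif overlapped a match of another in these windows. CSF1R has 2 annotated starts, the upstream one read from chr5:150113366-150113615 and the downstream one from chr5:150086555-150086804, both on the minus strand. FLT1 was read from chr13:28495129-28495378 and KDR from chr4:55125596-55125845, both on the minus strand. PGF, at its upstream start, was read from chr14:74955765-74956014 on the minus strand, FGFR3 from chr4:1793043-1793292 and FGFR4, at its upstream start, from chr5:177086665-177086914, both on the plus strand.
CSF1R, downstream start: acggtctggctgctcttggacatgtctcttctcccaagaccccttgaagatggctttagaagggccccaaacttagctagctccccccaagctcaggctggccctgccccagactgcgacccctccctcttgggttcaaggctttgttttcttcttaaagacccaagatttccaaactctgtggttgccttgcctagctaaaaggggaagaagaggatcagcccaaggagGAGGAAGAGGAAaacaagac
CSF1R, upstream start: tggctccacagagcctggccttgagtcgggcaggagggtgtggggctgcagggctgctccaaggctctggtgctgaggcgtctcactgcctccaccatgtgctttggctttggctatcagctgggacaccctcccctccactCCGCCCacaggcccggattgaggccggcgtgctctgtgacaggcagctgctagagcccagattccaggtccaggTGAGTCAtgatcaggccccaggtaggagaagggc
FLT1: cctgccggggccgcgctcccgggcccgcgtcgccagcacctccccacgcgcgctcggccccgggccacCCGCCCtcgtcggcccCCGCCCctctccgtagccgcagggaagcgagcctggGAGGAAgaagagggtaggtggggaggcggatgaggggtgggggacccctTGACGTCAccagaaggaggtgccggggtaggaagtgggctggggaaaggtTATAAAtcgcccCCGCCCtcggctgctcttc
KDR: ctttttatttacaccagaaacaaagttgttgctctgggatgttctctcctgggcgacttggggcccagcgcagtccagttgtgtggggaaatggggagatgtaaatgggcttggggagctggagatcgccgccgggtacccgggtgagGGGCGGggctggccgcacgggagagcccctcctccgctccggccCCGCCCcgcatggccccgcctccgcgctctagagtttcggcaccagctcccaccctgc
PGF: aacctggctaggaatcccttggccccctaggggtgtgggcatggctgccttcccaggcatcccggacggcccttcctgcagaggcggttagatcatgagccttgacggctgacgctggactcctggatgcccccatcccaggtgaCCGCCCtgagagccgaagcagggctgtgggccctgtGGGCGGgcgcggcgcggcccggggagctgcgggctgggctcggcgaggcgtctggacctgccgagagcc
FGFR3: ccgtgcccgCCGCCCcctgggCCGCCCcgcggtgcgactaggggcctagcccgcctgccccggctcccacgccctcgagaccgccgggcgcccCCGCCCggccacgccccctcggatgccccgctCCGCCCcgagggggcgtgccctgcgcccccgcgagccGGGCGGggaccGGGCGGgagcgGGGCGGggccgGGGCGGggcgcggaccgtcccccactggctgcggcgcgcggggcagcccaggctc
FGFR4: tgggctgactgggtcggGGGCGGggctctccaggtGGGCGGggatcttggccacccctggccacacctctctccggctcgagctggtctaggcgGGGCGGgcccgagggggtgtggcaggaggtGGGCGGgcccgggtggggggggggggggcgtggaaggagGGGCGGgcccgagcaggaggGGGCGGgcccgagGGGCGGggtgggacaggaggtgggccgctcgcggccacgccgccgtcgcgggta

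The printed windows of FGFR3 and FGFR4 held 8 and 7 GC boxes, the second start of FGFR4, not printed, held 0, and the window of VEGFB, not printed, held 6. Among all 35114 RefSeq windows of this length, 42.6% held at least 1 GC box and 4.15% held 5 or more. FLT1 held 3 and KDR 2, CSF1R held 1 at its upstream and 0 at its downstream start, and PGF held 2 in the window shown and 3 at its second start, not printed. The PGF windows overlap and share a GC box, which begins 69 bases before the upstream start and 236 bases before the second. FLT1 alone of these windows had a TATA box, beginning 31 bases before the start, and a cyclic AMP response element, beginning 81 bases before it. These motifs occurred in 10.7% and 1.65% of all windows. The downstream CSF1R window, from which the macrophage transcript is known to start, held 2 adjacent PU.1-type sites, beginning 20 and 14 bases before the start. FLT1 held 1 such site, and 23.6% of all windows held one. An AP-1 site was found at the upstream start of CSF1R, and 6.57% of all windows held one. A GATA site was found only at the second start of FGFR4, not printed, and 9.17% of all windows held one. The GC content of the printed windows ranged from 53.2% at the downstream CSF1R start to 86.8% in FGFR3, against a median of 58% over all windows. With so few windows no comparison between the rising and falling genes is drawn, and the matches are descriptions of the letters and not of factor binding.

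Of the 9 genes, 5 were more than 2-fold higher in the hyperoside group (CSF1, PGF, CSF1R, FLT1 and KDR), FGFR1 and FGFR4 were more than 2-fold lower, FGFR3 was lower by less than that, and VEGFB stayed close to its control level. Thus 7 of the 9 had the size and adjusted p of a differentially expressed gene (DEG, adjusted p under 0.05 and fold change above 2), against 10.2% of all 15095 genes tested, with 5 up (6.43% of all) and 2 down (3.76% of all). In 8 of the 9 the library values of the groups were apart, against 54.4% of the whole tested set, with 5 higher (27.1% of the set) and 3 lower (27.3% of the set). Nothing is read from these counts, since the same contrast chose the genes. All 9 passed the filter on low counts, which asked for 0.279 CPM, the count scaled to a common library size, in 3 libraries. CSF1R and KDR reached this level in all 3 hyperoside libraries and in 1 control library, and FGFR1 reached it in all 3 control libraries and in 0 hyperoside libraries, so these 3 genes passed through their higher group.

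**Figure D1:**
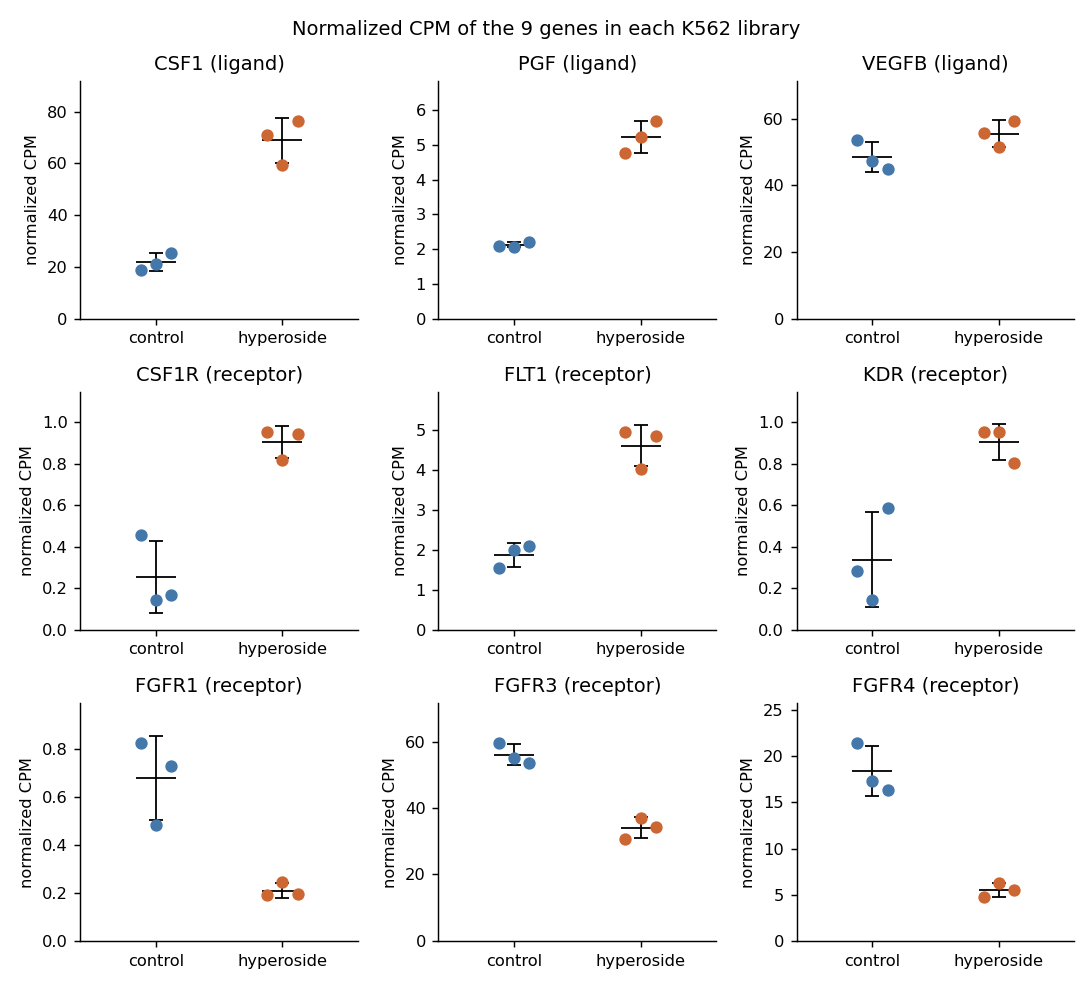
Normalized CPM (y axis, starting at 0) of the 9 genes in the 3 control (blue) and 3 hyperoside (orange) libraries, with horizontal lines for the mean and bars for the SD of 3 libraries. The groups overlap in VEGFB alone; CSF1, PGF, CSF1R, FLT1 and KDR are higher and FGFR1, FGFR3 and FGFR4 lower in the hyperoside libraries.

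Among the ligands, CSF1 was counted 664, 738 and 913 times in control replicates 1 to 3, compared with 2599, 2176 and 2764 times after hyperoside. Every hyperoside library thus lay above every control library. Its normalized level moved from 21.8 ± 3.41 to 68.9 ± 8.80 CPM (SD, n = 3 libraries each), a 3.16-fold higher mean and a log2 fold change of 1.66 (standard error 0.12). In bulk RNA of this kind, more cells with a transcript and more transcript per cell cannot be told apart. PGF, the placental growth factor, gave 74, 73 and 79 counts without and 175, 192 and 206 counts with hyperoside. The control libraries were nearly level, and the groups did not overlap. PGF went from 2.13 ± 0.07 to 5.23 ± 0.47 CPM (SD, n = 3 each), at a log2 fold change of 1.30 (standard error 0.21). VEGFB, which encodes the other FLT1-restricted ligand, had control counts of 1887, 1662 and 1605 against hyperoside counts of 2049, 1889 and 2147. Its groups overlapped after normalization, where control replicate 1 (53.7 CPM) lay above hyperoside replicate 2 (51.4 CPM). The means were 48.6 ± 4.54 and 55.6 ± 4.01 CPM (SD, n = 3 each), and the log2 fold change was 0.19 with a standard error of 0.09. Per length, the ratio of PGF to VEGFB was 0.037, 0.0415 and 0.0465 without hyperoside and 0.0807, 0.096 and 0.0906 with it, so VEGFB remained the more abundant of the pair throughout.

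The 3 receptors that were higher had few counts. CSF1R was counted 16, 5 and 6 times in control replicates 1 to 3, compared with 35, 30 and 34 times after hyperoside. The groups did not overlap, although control replicate 1 stood well above the other control libraries. For 5 counts the exact (Poisson) 95% interval runs from 1.62 to 11.7 counts, which covers counting error only. CSF1R went from 0.255 ± 0.17 to 0.904 ± 0.08 CPM (SD, n = 3 each), and its log2 fold change of 1.81 had a standard error of 0.55. Without control replicate 1 the log2 fold change was 2.52, and without control replicate 2 it was 1.53. FLT1 gave 54, 70 and 75 counts without and 182, 148 and 175 counts with hyperoside. Each hyperoside library lay clearly above the control libraries. FLT1 went from 1.87 ± 0.30 to 4.61 ± 0.51 CPM (SD, n = 3 each), which made the mean 2.46-fold higher, and the log2 fold change was 1.30 with a standard error of 0.23. KDR, the main signaling receptor for VEGFA in endothelium, had control counts of 10, 5 and 21 against hyperoside counts of 35, 35 and 29. The control libraries were scattered and control replicate 3 came closest to the hyperoside group. KDR went from 0.338 ± 0.23 to 0.903 ± 0.09 CPM (SD, n = 3 each), at a log2 fold change of 1.41 (standard error 0.54). This value was 2.06 without control replicate 3 and 1.04 without control replicate 2. Relative to KDR, FLT1 was 1.72 to 6.76 times as abundant per length in the control libraries and 2.04 to 2.91 times in the hyperoside libraries, so this ratio overlapped between the groups.

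Markers of monocytes, endothelium, megakaryocytes and stroma are given beside these receptors, since CSF1R, FLT1 and KDR are best known from such cells. Of 16 monocyte and macrophage markers 12 were in the table, and their summed level was 131.6 to 133.8 FPKM in the control group and 172.7 to 193.6 FPKM in the hyperoside group. Of these, 6 were tested, 4 rose, namely CD68, SPI1, LYZ and ITGAM, and 0 fell. The tested MSR1 and ADGRE1 were not called, with log2 fold changes of 0.99 and 0.47 (edgeR adjusted p = 0.0656 and 0.229). Of the 6 listed but untested markers MARCO was at 0 counts in every library, CD14 and CD163 averaged 2.67 and 2 counts, MRC1 and FCGR3A overlapped between the groups, and CD86 was counted 1, 0 and 0 times without and 10, 8 and 10 times with hyperoside. SPI1, which encodes the transcription factor PU.1, rose with a log2 fold change of 0.45 (adjusted p = 0.000448 from edgeR). Of 13 endothelial markers 10 were in the table, with a summed level of 23.9 to 27.6 FPKM in the control group and 44.2 to 51.2 FPKM in the hyperoside group. Of these, 6 were tested, 3 rose and 0 fell. These were PECAM1 (log2 fold change 1.52, adjusted p = 8.39e-09), ENG (2.11, adjusted p = 1.3e-06) and EGFL7 (0.98, adjusted p = 2.5e-07, all from edgeR). The tested TIE1, ESAM and SOX18 were not called, with log2 fold changes of 0.07, 0.13 and 0.10 (edgeR adjusted p = 0.871, 0.495 and 0.66). CLDN5 was at 0 counts in every library, and VWF, TEK and ROBO4 averaged 1.33, 0.833 and 1.17 counts. The megakaryocyte list, with 9 of 12 markers in the table, summed to 9.64 to 11.1 FPKM in the control group and 16.7 to 17.4 FPKM in the hyperoside group. Of its 4 tested genes ITGB3, GP6 and TUBB1 rose more than 2-fold, whereas ITGA2B fell with a log2 fold change of -0.36 (edgeR adjusted p = 0.0196, and 0.0589 to 0.0734 without control replicate 1 or 2 or hyperoside replicate 1 or 2). The stromal list summed to 2.08 to 3.74 FPKM in the control group and 3.65 to 4.43 FPKM in the hyperoside group, and PDGFRA and POSTN were at 0 counts in every library. ACTA2 and COL3A1 were called higher and COL1A1 and PDGFRB lower among its 6 tested genes. The calls of ACTA2 and COL3A1 were lost when single libraries were left out, with edgeR adjusted p of 0.0635 without control replicate 3 and 0.0827 without hyperoside replicate 3 for ACTA2, and of 0.0566 to 0.0923 without control replicate 1 or 3 or hyperoside replicate 1 or 2 for COL3A1. Called higher and lower were 66.7% and 0% of the tested monocyte, 50% and 0% of the endothelial and 75% and 25% of the megakaryocyte markers. Of the tested stromal markers 33.3% were called each way. The shares of all tested genes were 22.1% and 23.2%, and each list had 6 tested genes or fewer. The part of such markers in the receptor values was not tested.

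The chosen FGF receptor genes FGFR1, FGFR3 and FGFR4 moved the other way from CSF1R, FLT1 and KDR, by unequal amounts. Of the other FGF receptor genes, FGFRL1 was not called and FGFR2 was not tested. FGFR4 was counted 754, 610 and 583 times in control replicates 1 to 3, compared with 176, 229 and 199 times after hyperoside. The highest hyperoside library had fewer than the lowest control library by a wide margin. FGFR4 went from 18.4 ± 2.72 to 5.51 ± 0.72 CPM (SD, n = 3 each), leaving 30.0% of the control mean, and the log2 fold change was -1.73 with a standard error of 0.15. FGFR3 gave 2096, 1934 and 1919 counts without and 1130, 1364 and 1237 counts with hyperoside. The groups did not overlap and the libraries of each group lay close together. FGFR3 went from 56.1 ± 3.11 to 34.1 ± 3.18 CPM (SD, n = 3 each), leaving 60.7% of the control mean, and the log2 fold change was -0.72 with a standard error of 0.09. FGFR1 had control counts of 29, 17 and 26 against hyperoside counts of 7, 9 and 7. The groups did not overlap, but the hyperoside counts were low, with an exact Poisson 95% interval of 2.81 to 14.4 counts for 7 counts. FGFR1 went from 0.678 ± 0.18 to 0.210 ± 0.03 CPM (SD, n = 3 each), at a log2 fold change of -1.68 (standard error 0.56). Its exons overlap LETM2 and AC087623.1 on the opposite strand in GENCODE 29, so without strand in the counting some of its reads cannot be assigned to one gene. No such overlap was found for the other 8 genes.

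On the scale of FPKM, FGFR3 and FGFR4 made up nearly all FGF receptor kinase transcript in these cells. The sum of FGFR1 to FGFR4 was 19.4, 17.6 and 17.3 FPKM without hyperoside and 8.68, 10.5 and 9.51 FPKM with it. FGFR3 held 65.9%, 68.9% and 69.5% of this sum without hyperoside and 81.4%, 80.3% and 81.3% with it. FGFR4 held 33.5%, 30.7% and 29.8% and then 17.9%, 19.0% and 18.5%. The ratio of FGFR3 to FGFR4 was 1.97 to 2.33 in the control libraries and 4.22 to 4.55 in the hyperoside libraries, without overlap. FGFR2 was counted 3, 5 and 5 times in control replicates 1 to 3, compared with 12, 14 and 0 times after hyperoside, and did not pass the filter.

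**Figure D2:**
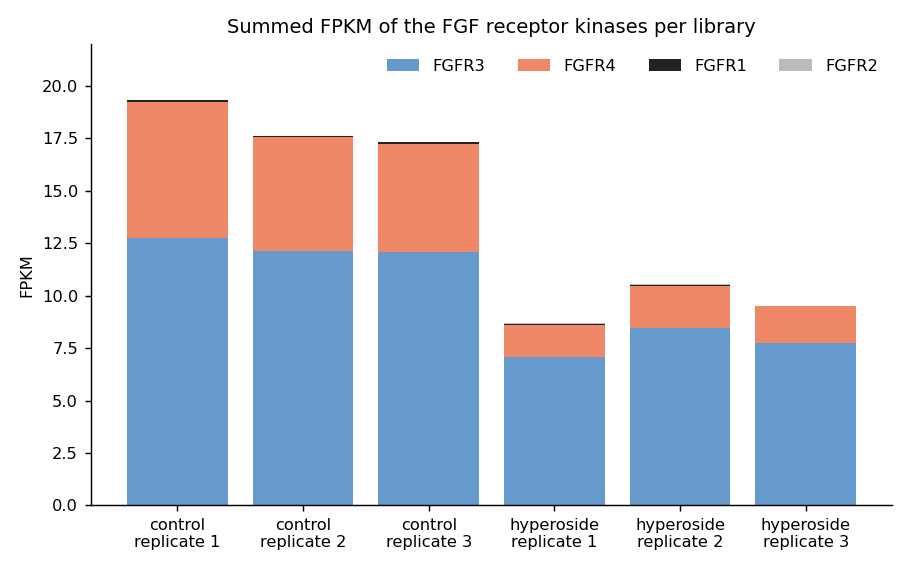
Summed FPKM of FGFR3 (blue), FGFR4 (orange), FGFR1 (black) and FGFR2 (grey) in each library, stacked from 0 on the y axis. The control bars reach 17.3 to 19.4 FPKM and the hyperoside bars 8.68 to 10.5 FPKM, with the FGFR4 share at 29.8% to 33.5% in the control and 17.9% to 19.0% in the hyperoside libraries.

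The order of the 9 genes by level per length differed between the groups. In the control group it ran from VEGFB (26.4 ± 1.81 FPKM) through FGFR3 (12.3 ± 0.38), FGFR4 (5.68 ± 0.70), CSF1 (4.47 ± 0.80) and PGF (1.10 ± 0.06) to FLT1 (0.153 ± 0.03), with FGFR1, CSF1R and KDR below 0.1 FPKM on average (SD, n = 3 each). Neighbors in this order whose libraries overlapped were FGFR4 and CSF1, FGFR1 and CSF1R, and CSF1R and KDR. In the hyperoside group VEGFB (31.3 ± 2.14 FPKM) was followed by CSF1 (14.6 ± 1.82), FGFR3 (7.75 ± 0.70), PGF (2.78 ± 0.23), FGFR4 (1.77 ± 0.23), FLT1 (0.388 ± 0.04), CSF1R (0.221 ± 0.02), KDR (0.158 ± 0.02) and FGFR1 (0.0278 ± 0.004), and no neighbors overlapped. CSF1 thus passed FGFR3, and PGF passed FGFR4. CSF1 lay above FGFR4 in the hyperoside group, but the control libraries of these genes overlapped, with CSF1 already higher in control replicate 3. Within each group the ligand genes were above their own receptors. The ratio of CSF1 to CSF1R per length was 36, 128 and 132 without hyperoside and 64.5, 63 and 70.6 with it. This ratio overlapped between the groups, and its control values rest on CSF1R counts of 16, 5 and 6.

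**Figure D3:**
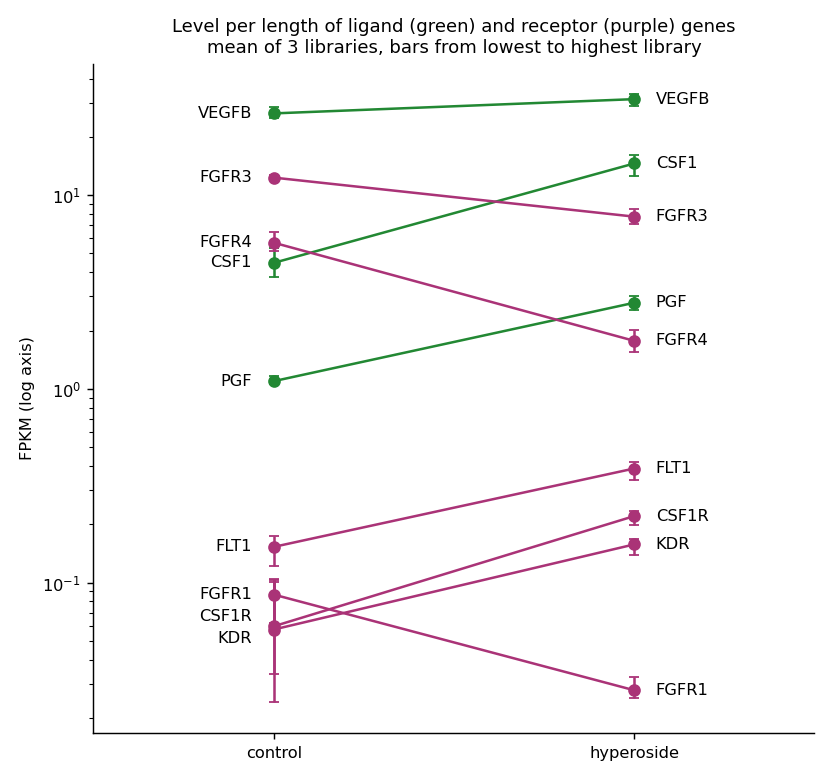
Mean FPKM (log axis) of the ligand genes (green) and receptor genes (purple) in the control and hyperoside groups, with bars from the lowest to the highest of 3 libraries. The lines of CSF1 and FGFR3 cross, as do those of PGF and FGFR4, while FLT1, CSF1R, KDR and FGFR1 stay under 0.5 FPKM.

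The rest of the same families was examined with edgeR, adjusting p over all genes tested. Of 39 further class III, VEGF and FGF receptor and ligand genes 32 were in the table, 14 were tested, 3 rose and 2 fell, with a median log2 fold change of 0.13. The FGF genes among them were taken by name, whether or not they encode secreted ligands. Over all tested genes 22.1% were called higher and 23.2% lower, and the median log2 fold change was 0.003. Among class III receptors, KIT, the stem cell factor receptor, gave 874, 1283 and 1017 counts without and 4857, 4276 and 4423 counts with hyperoside. KIT increased from 29.9 ± 5.93 to 123.7 ± 8.03 CPM (SD, n = 3 each), with log2 fold change 2.05 (standard error 0.11, edgeR adjusted p = 2.83e-10). PDGFRB, the PDGF receptor beta gene, had control counts of 21, 25 and 18 against hyperoside counts of 8, 6 and 5, and passed the filter through the control group. It fell at a log2 fold change of -1.78 (standard error 0.58, edgeR adjusted p = 0.0188), but the adjusted p was 0.0791 without control replicate 2, 0.066 without hyperoside replicate 2, 0.0794 without hyperoside replicate 3, 0.0516 with no filter and 0.0875 with limma-trend on FPKM. FLT3 and PDGFRA were at 0 counts in every library, which allows up to 3 counts per library. FLT4, the VEGFC receptor, had 22, 13 and 23 counts and then 15, 11 and 5, and was not called (log2 fold change -0.94, edgeR adjusted p = 0.201).

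VEGFA, the ligand of both FLT1 and KDR, was by far the most abundant ligand of these families. It had 125.2, 129.7 and 136.9 FPKM without hyperoside and 185.7, 141.0 and 190.3 FPKM with it. All hyperoside libraries lay above the control libraries, with hyperoside replicate 2 closest to them. VEGFA rose at a log2 fold change of 0.35 (standard error 0.09, edgeR adjusted p = 0.00422) and held 80.9% to 83.9% of the summed FPKM of the VEGF ligands in the control libraries and 81.6% to 84.4% in the hyperoside libraries. VEGFC and VEGFD averaged under 1 count. FGF2, a broad activator of FGF receptors, was counted 781, 903 and 1088 times in control replicates 1 to 3, compared with 457, 473 and 522 times after hyperoside. It fell from 26.1 ± 4.14 to 13.3 ± 1.05 CPM (SD, n = 3 each), with log2 fold change -0.98 (standard error 0.12, edgeR adjusted p = 4.66e-06). FGF5 rose, at a log2 fold change of 0.52 (standard error 0.14, edgeR adjusted p = 0.00617). FGF11, FGF13, FGF17 and FGF22 were not called, with log2 fold changes of 0.17, 0.10, 0.42 and -0.76, although FGF17 reached an edgeR adjusted p of 0.0481 and a log2 fold change of 1.22 without control replicate 3. FGF11 and FGF13 were listed by name, but they encode FGF homologs that stay inside the cell and are not secreted ligands. FGFRL1, an FGF receptor without a kinase domain, was not called (log2 fold change 0.19, edgeR adjusted p = 0.151, and 0.023 without control replicate 1). Among ligands of class III receptors PDGFA (-0.46), PDGFB (0.45) and FLT3LG (-0.29) were not called. The second CSF1R ligand gene, IL34, and the KIT ligand gene KITLG averaged 6 and 5.33 counts and were not tested.

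**Figure D4:**
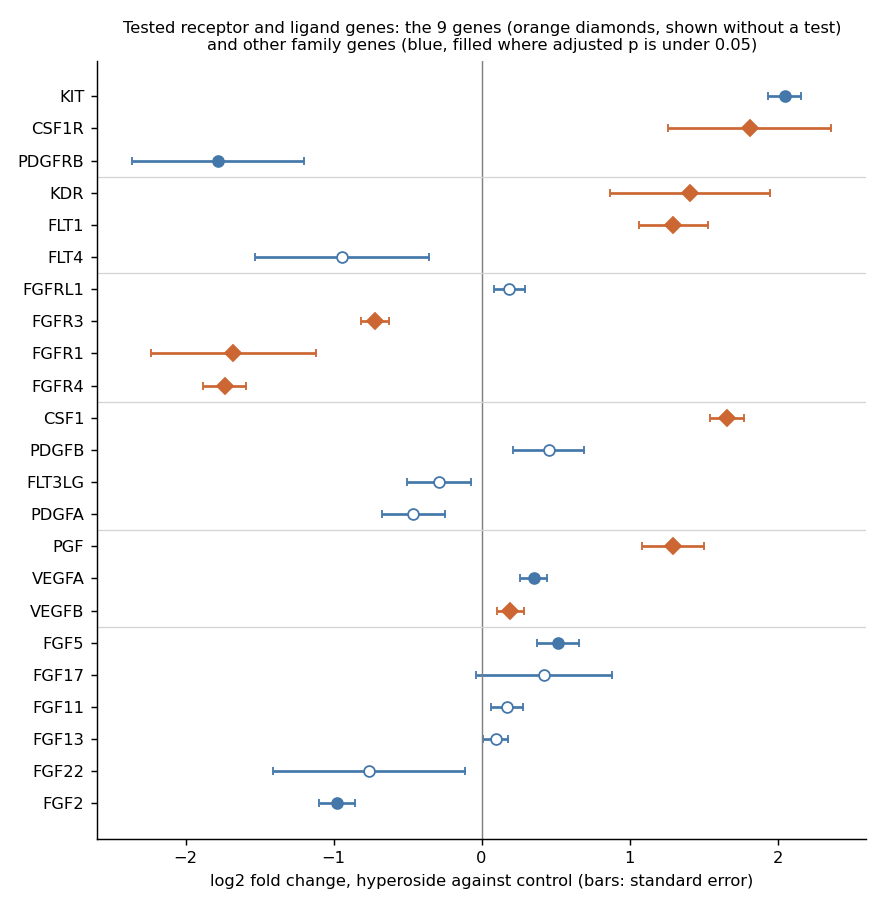
Log2 fold change of hyperoside against control with its standard error (x axis) for each tested receptor and ligand gene, in blocks from class III receptors at the top through VEGF receptors, FGF receptors and class III ligands to VEGF and FGF ligands. Orange diamonds are the 9 chosen genes without a test, and blue points are other family genes, filled where the edgeR adjusted p was under 0.05, as for KIT at 2.05 and FGF2 at -0.98. The FGF ligand block was taken by name and holds FGF11 and FGF13, which do not encode secreted ligands.

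Co-receptors and the enzymes that receptors recruit were read from lists as well. Of 15 co-receptor genes 13 were in the table and 8 were tested, of which 2 rose and 2 fell (25% each way), near the 22.1% and 23.2% of all tested genes. SDC1, the syndecan-1 heparan sulfate proteoglycan, gave 400, 342 and 291 counts without and 1041, 1109 and 939 counts with hyperoside, at a log2 fold change of 1.53 (standard error 0.13, edgeR adjusted p = 3.34e-08). SDC2, its paralog, had 94, 84 and 89 counts and then 11, 12 and 12, at a log2 fold change of -2.96 (standard error 0.37, edgeR adjusted p = 3.97e-06). These syndecans therefore moved in opposite directions, each without overlap between the groups. GPC2, a glypican, fell (log2 fold change -1.73, edgeR adjusted p = 6.27e-05) and SDC3 rose (0.36, edgeR adjusted p = 0.00106). The VEGF co-receptors NRP1 and NRP2 averaged 0.833 and 0.333 counts and were not tested.

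Of 34 adaptor and enzyme genes 31 were tested, of which 13 rose (41.9%) and 2 fell (6.45%), against 22.1% and 23.2% of all tested genes, with a median log2 fold change of 0.075. The largest rise was in INPP5D, the SHIP1 lipid phosphatase that opposes PI3K signaling, which went from 7.05 ± 1.05 to 19.3 ± 1.75 CPM (SD, n = 3 each), at a log2 fold change of 1.45 (standard error 0.14, edgeR adjusted p = 1.59e-07). DOK1 and DOK3, docking proteins that dampen tyrosine kinase signaling, rose with log2 fold changes of 0.55 and 1.002 (edgeR adjusted p = 0.000922 and 1.04e-05). PIK3R1, a regulatory subunit of PI3K, rose by 0.97 (edgeR adjusted p = 2.31e-06), GRAP2 by 0.36 and CRKL, a major BCR::ABL substrate, by 0.32 (edgeR adjusted p = 0.00154 and 0.000668). The genes that fell were the Src family kinase gene FYN (log2 fold change -0.43, edgeR adjusted p = 0.000867) and the adaptor gene GRB2 (-0.28, edgeR adjusted p = 0.00373).

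Among 46 other receptor tyrosine kinase genes 24 were tested, of which 5 rose (20.8%) and 6 fell (25%), shares near the 22.1% and 23.2% of all tested genes. AXL, a GAS6 receptor, had control counts of 148, 159 and 133 against hyperoside counts of 559, 621 and 503, and rose at a log2 fold change of 1.89 (standard error 0.15, edgeR adjusted p = 1.82e-08). Its relatives TYRO3 and MERTK fell, with log2 fold changes of -0.50 and -0.79 (edgeR adjusted p = 0.000203 and 0.000426). EPHB4, a receptor for ephrin-B2, rose with a log2 fold change of 1.05 (edgeR adjusted p = 3.21e-08), as did MET (0.84), DDR2 (0.996) and MST1R (0.59). PTK7, a pseudokinase receptor, fell with a log2 fold change of -0.88 (edgeR adjusted p = 7.31e-06), as did LTK (-0.70) and AATK (-2.66). AATK was counted 24, 49 and 45 times in control replicates 1 to 3, compared with 8, 5 and 6 times after hyperoside, and passed the filter through the control group.

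**Figure D5:**
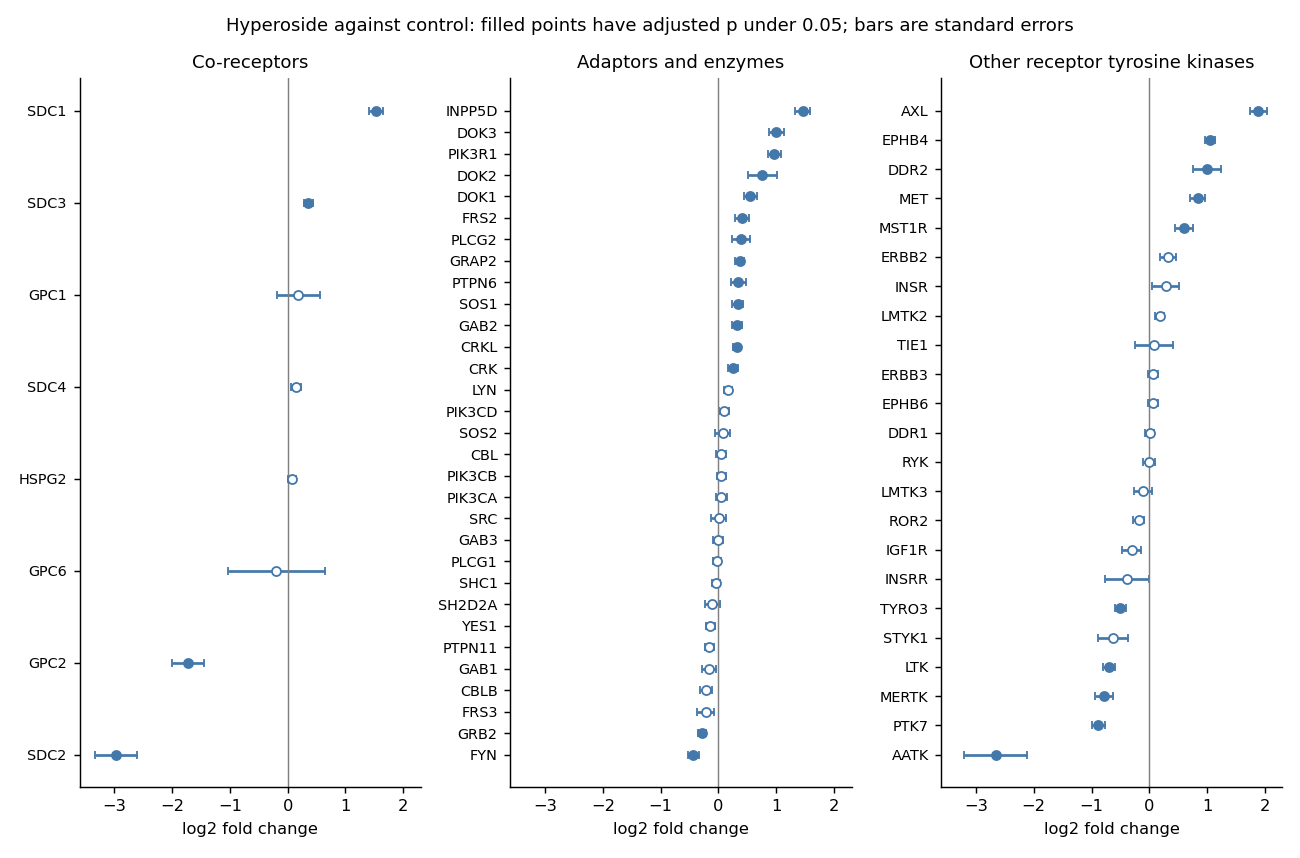
Log2 fold change of hyperoside against control with its standard error (x axis) for the tested co-receptors, receptor-proximal adaptors and enzymes, and other receptor tyrosine kinases (all tested but 1, which is not shown), each ordered by value. Filled points have an edgeR adjusted p under 0.05; 13 adaptors and enzymes lie filled to the right of 0 and 2 to the left.

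In the KEGG annotation that accompanies the counts, all 9 genes belonged to the MAPK, Ras, Rap1 and PI3K-Akt signaling pathways. Of the other 206 tested MAPK genes 56 rose and 60 fell, and of the other 146 tested Ras genes 29 rose and 39 fell. Of the other 145 tested Rap1 genes 36 rose and 37 fell, and of the other 219 tested PI3K-Akt genes 53 rose and 59 fell. Over all tested genes 22.1% rose and 23.2% fell, and nothing particular to these pathways is read from the counts. The median log2 fold changes of the 4 pathways were 0.027, -0.051, -0.027 and -0.010, close to the 0.003 of all tested genes.

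CSF1R and KDR lie beside related receptor genes, and the nearest protein-coding neighbors in RefSeq on GRCh38.p14 are given by position. CSF1R (chromosome 5, 150053295 to 150113365) lies 474 bases from PDGFRB, whose lower call was lost in the alternatives given above, and 167 bases from HMGXB3 on its other side, which was not called (log2 fold change 0.06). KDR (chromosome 4, 55078481 to 55125595) lies 337766 bases from KIT, which rose, and 220647 bases from SRD5A3, which rose with a log2 fold change of 0.89 (edgeR adjusted p = 3.41e-06). FLT1 (chromosome 13, 28300346 to 28495128) has PAN3 at 5011 bases, which rose slightly (0.32, edgeR adjusted p = 0.0259), and POMP at 164002 bases, not called. FGFR3 (chromosome 4, 1793293 to 1808867) lies between TACC3 and LETM1, which both fell, by log2 fold changes of -0.41 and -0.26 (edgeR adjusted p = 0.0003 and 0.0415). FGFR4 (chromosome 5, 177086915 to 177098144) lies between ZNF346, not called, and NSD1, which rose with a log2 fold change of 0.65 (edgeR adjusted p = 3.17e-06). CSF1 (chromosome 1, 109910506 to 109930992) lies next to AHCYL1, which fell (-0.60, edgeR adjusted p = 1.37e-06), and EPS8L3, not called (1.43, edgeR adjusted p = 0.164). PGF (chromosome 14, 74941830 to 74955764) lies between RPS6KL1 and EIF2B2, neither of them called. VEGFB has DNAJC4, not called, and FKBP2, not tested, beside it. FGFR1 has LETM2, not called, and TACC1, which fell (-0.28, edgeR adjusted p = 0.00554).

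The profile of each gene over the 6 libraries was compared with those of up to 12833 tested genes at 1 CPM or more, on the log2 CPM scale. The 6 libraries form 2 groups, so the profiles share the group difference, and the correlations are given without a p. The closest profiles to CSF1 were OSBPL5 (Pearson r = 0.9996) and SQSTM1 (0.9994), and those to PGF were ENOX2 (0.9998) and C11orf21 (0.9985). FLT1 was closest to LOC105375523 and PHYH, KDR to BCAS2 and FOXL2, and CSF1R to ECSIT and TMEM198. The closest profiles to FGFR4 were PER1 (0.9997) and SYVN1 (0.9995), and those to FGFR3 were SLC35A2 (0.9986) and the receptor tyrosine kinase gene TYRO3 (0.9974). FGFR1 was closest to HAUS8 and KLHL17, and VEGFB to IFNGR2 and PSMF1.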

How the data were processed

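The 6 K562 RNA libraries were grouped by the sample titles into 3 control and 3 hyperoside libraries. The dose comes from the text of the study. The authors deposited raw counts per gene and FPKM values made from them by gene length and library total. Total RNA was extracted with Trizol, the library kit was VAHTS Universal V6, the sequencer was an Illumina HiSeq, and the submitters' processing notes name fastp, HISAT2, HTSeq and hg38. Versions, annotation and use of strand are not given in the sources used here.

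Counts were analyzed in R 4.3.3 with edgeR 4.0.16 (filterByExpr with a minimum count of 10 and a minimum total of 15, TMM, quasi-likelihood test, condition as the only term, Benjamini-Hochberg adjustment over 15095 genes). The standard error is the log2 fold change divided by the square root of F. Alternatives used DESeq2 1.42.0 and limma 3.58.1; the DESeq package of the study was not used. On simulated counts 83 of 97 genes changed by a log2 fold change of 1.5 and 94 of 94 changed by 3 were recovered as DEGs, and 2 unchanged genes were called. The simulated counts were drawn from the means and dispersions fitted to these data, so they check only that the procedure runs as intended. Recovery at low counts was not looked at apart. Depth was 35613283 to 36754725 counts per library, TMM factors 0.957 to 1.03.

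The members and gene lists were chosen with earlier results of these data known. All members were named, together with called genes above 2-fold in each list, family genes averaging at least 10 counts, up to 6 called genes per direction of the other lists, the 3 most abundant markers of each type and the 2 closest profiles. The stromal gene COL1A2 and the endothelial genes ESAM and SOX18, taken by this rule, were not called. ITGAM, COL1A1, CD14, CD163, MARCO, CLDN5, VWF, TEK, TIE1, ROBO4, POSTN, NRP1, NRP2, IL34, KITLG, VEGFC, VEGFD, FGFR2, FLT3, PDGFRA, the chromosomal neighbors, CD86, MSR1, ADGRE1, MRC1, FCGR3A, KLF1 and NFE2 were named after their values were seen. Promoter and position tables were RefSeq GRCh38.p14, and plots used Python 3.11.15 with matplotlib 3.10.9. The authors' other annotation columns were not analysed here. The values of 2 genes, included in the counts of their lists, are not reported here.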

Additional observations from a re-analysis of the deposited data

How the results depend on the processing

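Each of the 9 genes kept its direction in every alternative that gave a value. Limma-trend on log2(FPKM + 1), where the added 1 shrinks low values, moved the log2 fold changes to 0.20 for CSF1R, 0.27 for FLT1, 0.13 for KDR, 0.85 for PGF, -0.0803 for FGFR1 and -1.27 for FGFR4, and gave 208 upregulated and 136 downregulated DEGs against 970 and 567. A mean of at least 100 counts, which leaves out CSF1R, KDR and FGFR1, gave 478 and 285 DEGs, and the adjusted p alone called 3333 genes higher and 3508 lower. The number of further class III, VEGF and FGF genes called lower went from 2 to 1 with each of limma-trend, no filter and the 100-count minimum. With 1 library left out, it was 1 to 2 (PDGFRB lost), co-receptors and adaptors called lower were 4 to 7 (7 without control replicate 1), CSF1R ranged from 1.53 to 2.52 and KDR from 1.04 to 2.06. The number of co-receptors and adaptors called higher was 15 and ranged from 11 to 15. Scaling by DESeq2 size factors or library totals and the DESeq2 test moved none of these counts by over 1.5 times and none of the 9 fold changes beyond the spread between replicates. TPM, run only for the levels per length, moved none of those 9 ratios beyond it. Of 721 single-gene values for 56 genes named outside the 9, 16 lost and 2 gained significance, in 6 genes, and 0 reversed.

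The labels do not say whether same-numbered libraries were prepared together. Deviations of same-numbered libraries from their group means had correlations of -0.081, -0.033 and -0.034. Those of differently numbered libraries had correlations of -0.027 to 0.064. With 3 libraries per group these values cannot settle whether the libraries were paired. With the replicate block 924 upregulated and 542 downregulated DEGs were called, 13 co-receptors and adaptors were higher and 4 lower, and CSF1R had a log2 fold change of 1.93 and KDR of 1.53. Depth limits CSF1R, KDR, FGFR1, FLT4 and PDGFRB, at 35 counts or fewer per library.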
